A study of Homo sapiens with 12 samples.

Results

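TP73, MDM2, CDKN1A, SFN, GADD45A, RPRM, BBC3 and BAX are a relative of p53 and 7 genes that p53 regulates, and their cytosine methylation was read in SV-HUC-1 cells, a human urothelial line. They were chosen by name, 8 of the 20033 protein-coding genes with 1 placement on chromosomes 1 to 22, X and Y. Every CpG listed within a gene's span, with 1500 bases added on each side, was taken, which gave 1614 CpGs with a 5-methylcytosine (5mC) level out of 3689712 and 1575 with a 5-hydroxymethylcytosine (5hmC) level out of 3534314. The tested cells had 3 days of 2,6-dichloro-1,4-benzoquinone (DCBQ), a disinfection byproduct of drinking water, and the controls had a blank solution for the same time. There were 3 samples of each for either mark, from reduced representation bisulfite (RRBS) and oxidative RRBS libraries. All cells were SV-HUC-1, immortalised with SV40, whose large T antigen binds p53, in both groups alike. No label says whether replicates were separate cultures, and the p-values below therefore rest on a between-sample spread that may be technical. The tables give no read depth, and the precision of each level is known only from the 3 samples.

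p53 is a transcription factor that halts the cell cycle or starts apoptosis after DNA damage, and p73 is a relative that binds the same DNA elements. Methylation of a CpG-rich promoter goes with silencing of its gene, whereas methylation inside a gene is common in active genes. TET enzymes oxidise 5mC to 5hmC, which is one route of its removal.

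Of the RefSeq promoter sequences (GRCh38.p14, the same assembly as the hg38 positions of the tables), 5 are shown, because they hold the measured CpGs on which the results at the starts turn. Each runs from 250 bases before to 50 after a listed transcription start, and capitals mark the CpGs with a 5mC level. The TP73 upstream start (chr1:3652266-3652565, plus strand) gives the full-length p73 forms, and the TP73 internal start (chr1:3690422-3690721, plus strand) gives the forms without the transactivation domain. The MDM2 internal start (chr12:68808767-68809066, plus strand) is the one that p53 is known to activate. CDKN1A (chr6:36678464-36678763, plus strand) and RPRM (chr2:153478713-153479012, minus strand) have 1 listed start each.
TP73 upstream start: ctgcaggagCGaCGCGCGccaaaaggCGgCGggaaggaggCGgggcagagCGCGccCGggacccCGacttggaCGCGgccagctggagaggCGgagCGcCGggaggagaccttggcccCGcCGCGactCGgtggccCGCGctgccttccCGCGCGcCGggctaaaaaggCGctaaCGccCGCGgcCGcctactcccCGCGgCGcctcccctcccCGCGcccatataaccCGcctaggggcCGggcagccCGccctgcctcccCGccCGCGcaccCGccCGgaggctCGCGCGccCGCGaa
TP73 internal start: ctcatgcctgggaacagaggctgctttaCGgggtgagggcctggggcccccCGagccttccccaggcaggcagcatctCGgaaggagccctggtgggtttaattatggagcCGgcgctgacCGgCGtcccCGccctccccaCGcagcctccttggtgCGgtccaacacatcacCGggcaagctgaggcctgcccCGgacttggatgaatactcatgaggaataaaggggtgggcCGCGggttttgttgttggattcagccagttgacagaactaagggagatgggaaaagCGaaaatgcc
MDM2 internal start: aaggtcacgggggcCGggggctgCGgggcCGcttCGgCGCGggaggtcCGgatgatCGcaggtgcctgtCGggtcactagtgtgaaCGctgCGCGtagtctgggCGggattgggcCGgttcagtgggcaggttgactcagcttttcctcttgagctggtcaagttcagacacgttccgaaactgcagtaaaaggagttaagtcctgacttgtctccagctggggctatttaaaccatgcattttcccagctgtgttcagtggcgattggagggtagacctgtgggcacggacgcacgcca
CDKN1A start: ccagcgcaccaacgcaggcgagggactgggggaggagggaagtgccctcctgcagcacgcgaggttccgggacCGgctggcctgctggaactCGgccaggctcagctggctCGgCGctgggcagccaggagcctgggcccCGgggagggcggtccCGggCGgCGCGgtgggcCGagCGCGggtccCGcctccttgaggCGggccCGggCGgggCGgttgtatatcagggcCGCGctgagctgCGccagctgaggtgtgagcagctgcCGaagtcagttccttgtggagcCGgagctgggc
RPRM start: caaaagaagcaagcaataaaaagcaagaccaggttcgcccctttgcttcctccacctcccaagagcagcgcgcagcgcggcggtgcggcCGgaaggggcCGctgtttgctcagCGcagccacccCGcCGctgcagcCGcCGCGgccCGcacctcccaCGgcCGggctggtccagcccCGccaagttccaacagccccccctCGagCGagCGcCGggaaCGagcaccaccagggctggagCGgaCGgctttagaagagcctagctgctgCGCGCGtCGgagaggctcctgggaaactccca

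The 5mC levels of these sequences differed widely between the starts. All 49 CpGs of the TP73 upstream sequence were measured and none had more than 4.85% 5mC on average over the 6 samples. At the TP73 internal start 14 of 15 CpGs were measured, with single CpGs from 22.5% to 99.3%. The MDM2 internal sequence, with 14 of 21 CpGs measured, had at most 7.08% at any CpG. CDKN1A had 22 of 29 measured and at most 4.10%, and RPRM 23 of 30 and at most 5.75%. Promoter sequences were listed for 7 of the 8 genes, all but GADD45A.

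A search for the p53 consensus, 20 bases made of a pair of 10-base sites without a spacer, allowed 3 mismatches outside the central C and G of each 10-base site. The consensus reads the same on both strands, and no other motif was searched. A match was found in 3 of the 12 promoter sequences listed for the members, 1 of TP73 and 2 of MDM2 that overlap and hold the same match, whereas 1.12% of all 35116 listed ones held one. In the matches below, capitals mark the central C and G of each 10-base site, and each match had 2 mismatches.
TP73 internal start, bases -76 to -57: gggCaaGctgaggCctGccc
MDM2 internal start, bases -94 to -75: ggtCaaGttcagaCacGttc
The TP73 match had 3 measured CpGs within 30 bases. At the CpG that begins 1 base before the match (3690595), 5mC was 65.7%, 73.3% and 73.1% in DCBQ samples, against 85.7%, 62.5% and 72.2% in controls. The groups overlapped there, and so they did at the other CpGs. No measured CpG lay within 30 bases of the MDM2 match. A match describes these letters only, and binding was not measured here.

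Across the 8 genes, no promoter and no gene body passed the test in either mark. The promoter was counted from 1500 bases before to 500 after the most upstream listed start, and the body from there to the other end. The mean level over the CpGs was compared by limma, fitted across all genes with at least 5 CpGs and adjusted by Benjamini-Hochberg at 0.05. For 5mC, 7 members had a testable promoter and 7 a testable body, with limma adjusted p from 0.733 to 0.986 and from 0.639 to 0.969. For 5hmC, the adjusted p ran from 0.958 to 0.9997 in 7 promoters and from 0.967 to 0.997 in 7 bodies. The background was the same, since 0% of 15402 promoters and 0% of 16559 bodies passed for 5mC, and 0% of 15290 promoters and 0% of 16421 bodies for 5hmC. At an unadjusted p under 0.05 there was 1 member promoter for 5mC (RPRM), against 6.66% of all promoters, and 1 for 5hmC (MDM2), against 4.87%. No member body reached it, against 8.59% of bodies for 5mC and 5.37% for 5hmC.

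The direction of the small differences was counted beside that of all genes. At promoters, 6 of the 7 members read lower 5mC in DCBQ samples, with a median difference of -0.285 percentage points, whereas 59.7% of all promoters read lower, with a median of -0.0968. In bodies 5 of 7 read lower with a median of -0.266, beside 69.6% of all bodies and a median of -0.389. For 5hmC, 3 of 7 promoters and 2 of 7 bodies read lower, beside 45.9% and 43.6% of all genes. When each sample was centred on its own mean over all CpGs, the lower share of all genes in 5mC became 26.5% at promoters and 48.6% in bodies. For 5hmC it became 57.8% and 50.9%. In 5mC, 4 of the 6 lower member promoters then read higher. Centring moves every difference of a mark by the same amount, that between the group means over all CpGs. In 5mC each lower promoter with a difference smaller than that had to turn, so the count is no test of direction. Mean 5mC over all CpGs was 54.1% ± 0.0979 in DCBQ samples and 54.5% ± 0.154 in controls (SD, n = 3 each). The difference of -0.416 points had a two-sided exact permutation p of 0.1, the smallest that 20 relabellings allow.

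**Figure D1:**
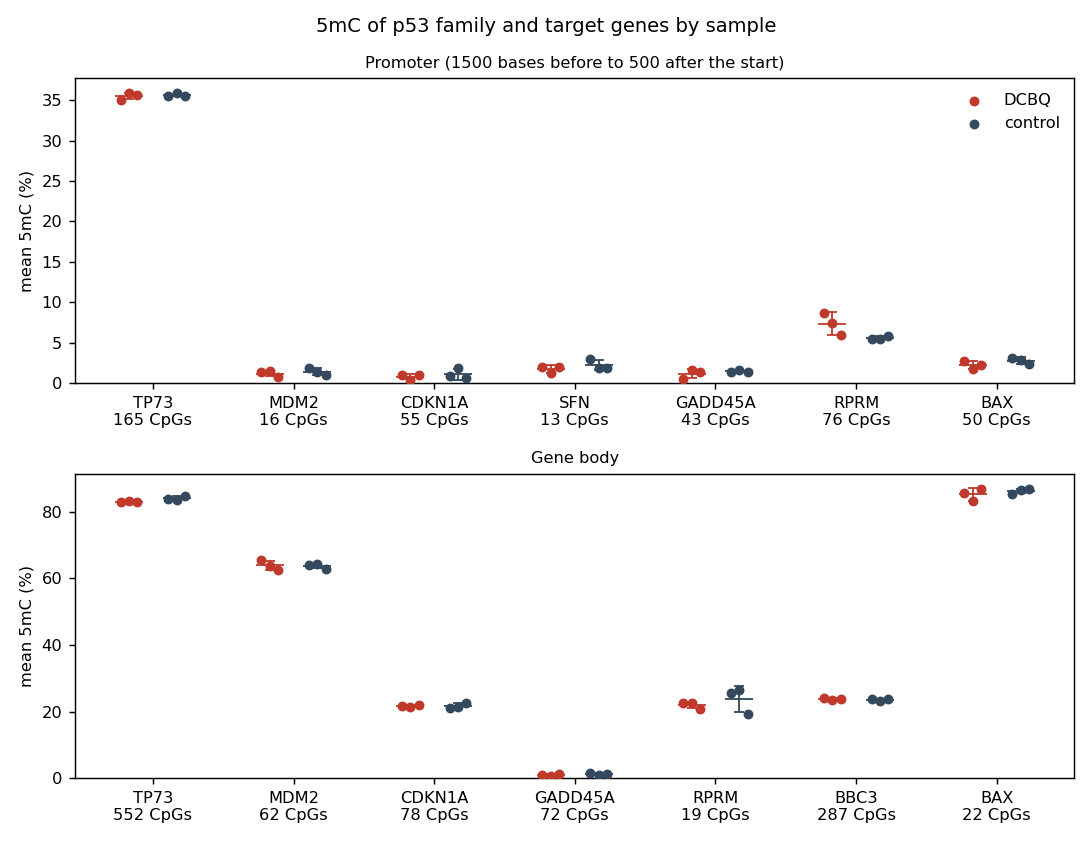
Mean 5mC in percent of the 7 tested promoters (top) and 7 tested bodies (bottom), with 1 point per sample, DCBQ left of control, and bars for the mean and SD of 3 samples. TP73 is the highest promoter drawn, at 35.5% in DCBQ samples and 35.6% in controls, the BBC3 promoter is not drawn since its 4 CpGs were too few for the test, and RPRM is the 1 tested promoter whose groups do not overlap.

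TP73 had the most methylated promoter window of the 7. Its 165 CpGs averaged 35.1%, 35.8% and 35.6% in DCBQ samples and 35.5%, 35.8% and 35.5% in controls. The groups overlapped and differed by -0.12 points (SE 0.63, limma adjusted p = 0.986). Of all promoters, 79.6% had a lower level.

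That mean joined a methylated upstream stretch and an unmethylated one at the start. The 52 CpGs at positions -1489 to -813 from the start averaged 92.5% ± 0.410 in DCBQ samples and 92.0% ± 0.199 in controls (SD, n = 3 each). The 95 CpGs at positions -537 to 447 averaged 1.51% ± 0.175 in DCBQ samples and 1.53% ± 0.281 in controls. Between the 2 stretches, 18 CpGs at positions -799 to -557 averaged 46.3%, 51.5% and 53.5% in DCBQ samples and 52.4%, 55.0% and 50.6% in controls. Single CpGs of that border ran from 2.78% to 93.4%. The borders of all such stretches were set after the levels were seen, so their values are descriptions.

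The border of TP73 had a higher 5hmC level per CpG than the stretches on either side of it. The stretches were drawn by 5mC, from which 5hmC is not independent, and the part of this in the difference was not tested. There 5hmC was 12.8%, 6.21% and 6.91% in DCBQ samples, against 5.85%, 5.21% and 8.37% in controls, with groups that overlapped. Next to the start it was 0.925% ± 0.219 in DCBQ samples and 1.13% ± 0.245 in controls, and at positions -1489 to -813 it was 2.21% ± 0.399 and 2.59% ± 0.245 (SD, n = 3 each). Over the whole promoter window 5hmC differed by -0.0028 points (SE 0.42).

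The body of TP73 was heavily methylated and read slightly less in DCBQ samples. Its 552 CpGs averaged 82.9%, 83.1% and 83.0% in DCBQ samples and 83.8%, 83.3% and 84.7% in controls. The groups did not overlap, as in 15.9% of all bodies. The difference was -0.99 points (SE 0.52, limma unadjusted p = 0.105, adjusted p = 0.639), and -0.60 without control replicate 3. The body overlaps the non-coding genes TP73-AS3 and TP73-AS2. Exons and introns were not analysed here.

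Around the TP73 internal start 5mC read lower in DCBQ samples, without passing the test. In the 14 CpGs of the printed sequence 5mC was 63.2%, 62.6% and 60.1% in DCBQ samples, against 67.6%, 66.5% and 70.7% in controls. Every DCBQ sample lay below every control, by 6.28 points on average. This short window was not tested, and windows at this start were added after the data were seen. How many such short windows had groups apart was not counted, and among all promoter windows the share was 11.9%. Over the wider window of 2000 bases at this start (41 CpGs, chr1:3689172-3691171) the levels were 78.0%, 77.8% and 76.3% in DCBQ samples and 78.8%, 79.0% and 81.7% in controls, a difference of -2.46 points (SE 1.13, limma unadjusted p = 0.0697, adjusted p = 0.784 over all listed starts). The 5hmC levels of the 14 CpGs overlapped, at 7.10%, 2.52% and 7.33% in DCBQ samples and 8.19%, 6.66% and 4.62% in controls.

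Along the span of TP73 with its flanks, 1 kb tiles showed where the marks lay. Of its 42 tiles with 5mC, 4 had an unadjusted limma p under 0.05, as had 6.2% of all 210465 tiles, and for 5hmC 5 of 41 against 4.83% of 201935. No tile passed the adjusted test, of these or of all (0% for both marks). The tile chr1:3682001-3683000 read 91.0%, 94.1% and 90.9% 5mC in DCBQ samples and 85.9%, 86.5% and 83.9% in controls. Its 6 CpGs read 2.56%, 0% and 3.33% 5hmC in DCBQ samples and 8.51%, 8.0% and 8.19% in controls. Every DCBQ sample was thus higher in 5mC and lower in 5hmC there, by 6.6 points (SE 1.31, limma adjusted p = 0.714) and -6.27 points (SE 1.55, limma adjusted p = 0.973).

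The tile chr1:3669001-3670000 went the other way. It read 57.5%, 54.9% and 53.4% 5mC in DCBQ samples, below all controls at 59.9%, 61.5% and 60.1%, and 5hmC of 5.38%, 6.84% and 6.78% in DCBQ samples, above controls at 2.69%, 4.97% and 3.19%. The tile chr1:3689001-3690000, just before the internal start, had 3.09 points less 5mC and 3.49 points more 5hmC in DCBQ samples. In chr1:3655001-3656000 there were 2.51 points less 5mC. Each had groups apart, which means that every sample of a group lay beyond every sample of the other. All these tiles were named for an unadjusted p under 0.05, which favours groups apart. The share of all tiles with groups apart was not counted. For 5hmC alone, the tiles that begin at 3695001 and 3703001 were lower in DCBQ samples, by -4.07 and -3.29 points, and the tile at 3705001 was higher by 1.82. Little 5mC was found in the tile at 3703001, 8.47% ± 1.22 in DCBQ samples and 10.1% ± 1.37 in controls (SD, n = 3 each), and in 5mC its groups overlapped.

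**Figure D2:**
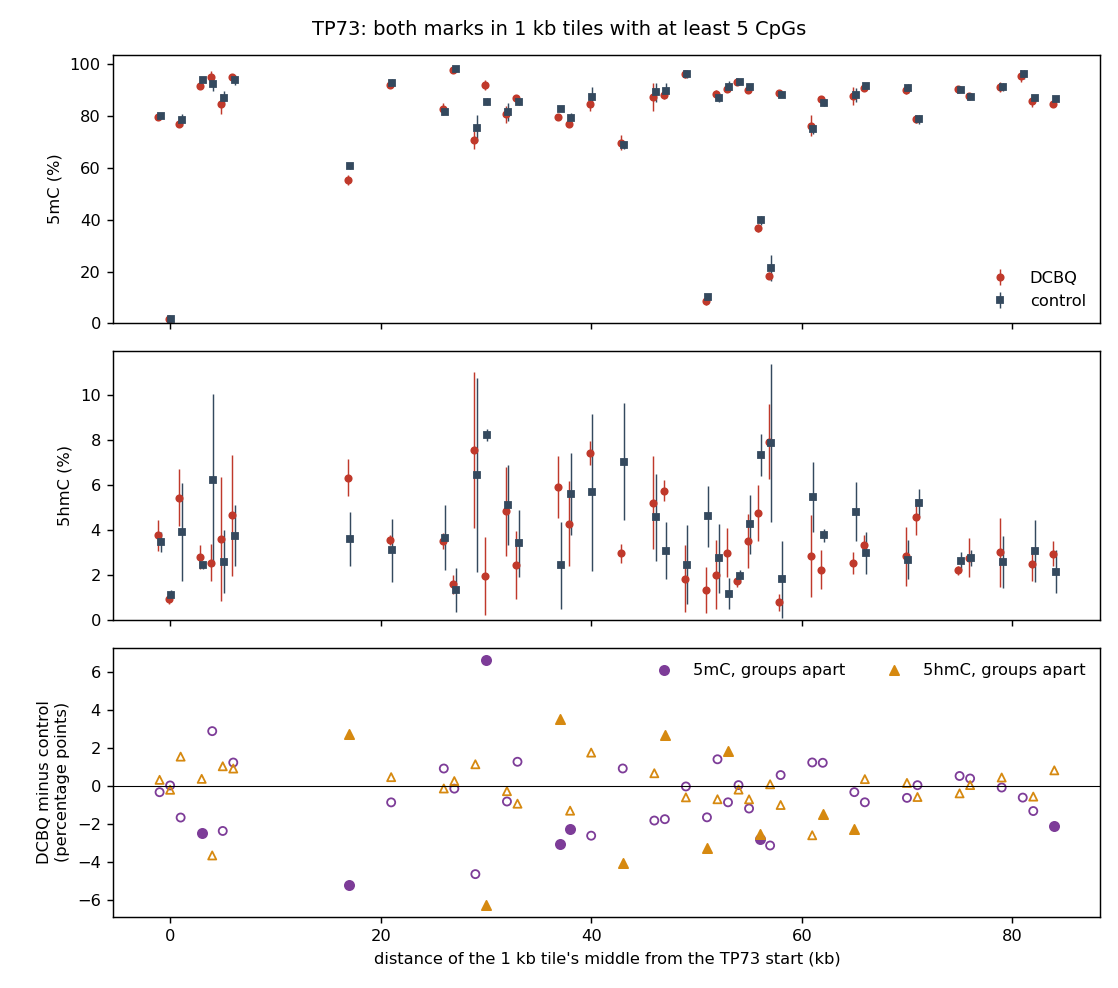
TP73 in 1 kb tiles by the distance of the tile's middle from the upstream start in kb. Mean and SD of 3 samples are drawn for 5mC (top) and 5hmC (middle) in percent, and the difference of DCBQ minus control in percentage points (bottom), with filled symbols for tiles whose groups do not overlap and open ones for the rest. The tile that begins at 3682001 has the largest differences, 6.6 points in 5mC and -6.27 in 5hmC, and the tile around the start has almost no 5mC.

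The single CpGs of TP73 described first, those with the smallest p, read less 5mC and more 5hmC in DCBQ samples. Among 699 CpGs of TP73 that varied, 20 were lower by 10 points or more with groups apart and 3 were higher. These were 2.86% and 0.429% of its varying CpGs, and over all CpGs tested the lower ones were 1.79% and the higher ones 1.2%. Without the limit of 10 points the lean was smaller, with groups apart at 35 lower and 27 higher CpGs of TP73. Neighbouring CpGs of a gene are not independent, so these counts are descriptions. In 5hmC, 5 TP73 CpGs were lower and 6 higher by 10 points or more with groups apart, among 673 that varied. The CpG at 3681222 read 62.5%, 62.5% and 70.0% 5mC in DCBQ samples, against 88.9%, 100% and 100% in controls, and its 5hmC was 12.5%, 25.0% and 11.1% in DCBQ samples and 0% in every control. The CpG at 3651736, in the border upstream of the start, read 69.2%, 66.7% and 76.5% 5mC in DCBQ samples and 91.2%, 91.7% and 100% in controls. Its 5hmC was 19.2%, 24.0% and 10.7% in DCBQ samples and 0% in every control.

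The same pattern was read at 3669039 and 3673101. At 3669039, 5mC averaged 72.9% in DCBQ samples and 88.1% in controls, and 5hmC 15.8% and 0%. At 3673101, 5mC averaged 86.8% in DCBQ samples and 99% in controls, and 5hmC 10.4% and 0.301%. None of these CpGs passed (limma adjusted p of 0.850 to 0.928 for 5mC and 0.781 for 5hmC). For 5mC 0% of 3419211 CpGs passed with 10 points or more, and for 5hmC 3 of 3153081 (9.51e-05%), none of them in the 8 genes.

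The 2 marks are not independent readings. Oxidative bisulfite reads 5mC alone and plain bisulfite reads both marks together, so a 5hmC level rests on both kinds of library; their combination by the authors is not described in the labels. Among the 3533825 CpGs in both tables, the groups were apart in both marks in opposite directions at 57724 CpGs (1.63%) and in the same direction at 908 (0.0257%). In the 8 genes this was 26 CpGs (1.65%) and 1 CpG (0.0635%). TP73 held 22 of the 26, of which 12 had lower 5mC with higher 5hmC in DCBQ samples and 10 had higher 5mC with lower 5hmC. It also held 718 of the members' 1575 CpGs in both tables, and the 22 were 3.06% of its own. The 2 levels of a CpG added up to more than 100% at 2.22% to 3.87% of the members' CpGs in a sample, and at 2.75% to 3.34% of all. The part of this dependence in the TP73 values was not tested.

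**Figure D3:**
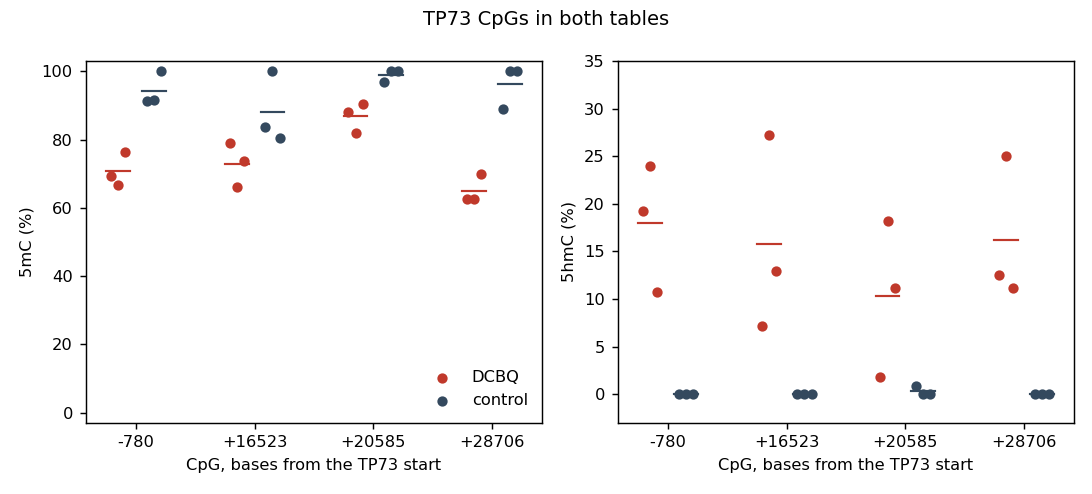
5mC (left) and 5hmC (right) in percent at the 4 TP73 CpGs chosen by the smallest p in either mark among those with groups apart, by distance in bases from the upstream start. Each point is a sample, DCBQ left of control, and lines are means of 3. DCBQ samples lie below controls in 5mC and above them in 5hmC at each CpG.

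MDM2, the ubiquitin ligase that degrades p53 and is itself induced by it, was unmethylated at both of its start regions. Its promoter window at the upstream start held 16 CpGs, all downstream of the start, with 1.34%, 1.45% and 0.806% 5mC in DCBQ samples and 1.89%, 1.39% and 1.06% in controls. At the internal start, the 14 measured of the 21 CpGs of the printed sequence averaged 1.49% ± 0.546 in DCBQ samples and 1.85% ± 0.670 in controls (SD, n = 3 each). The groups overlapped at both.

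The 5hmC of the MDM2 promoter window was lower in DCBQ samples. It was 0.358%, 0.681% and 0.568% in DCBQ samples, against 1.25%, 1.98% and 0.929% in controls. Every DCBQ sample lay below every control, as either direction did in 9.97% of all promoters. The difference was -0.85 points (SE 0.29, limma unadjusted p = 0.0180, adjusted p = 0.958). No CpG of the window had 5hmC above 0 in all 6 samples, and 6 of the 16 were at 0 in all. At the wider window of the internal start, which shares those CpGs, 30 CpGs differed by -0.35 points (SE 0.27) with groups that overlapped.

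The body of MDM2 had 65.4%, 63.7% and 62.6% 5mC in DCBQ samples and 64.1%, 64.2% and 62.9% in controls. Beyond 2000 bases from the start its 50 CpGs averaged 82.1% ± 1.53 in DCBQ samples and 81.6% ± 1.01 in controls (SD, n = 3 each). Neighbouring CpGs at 68810618 and 68810622 read less 5mC in DCBQ samples, 80.7% against 87.7% and 86.0% against 97.6%, and at the first of them 5hmC was 13.3%, 3.33% and 20% in DCBQ samples and 0%, 2.94% and 0% in controls. Another CpG at 68847608, where the span overlaps CPM, had 5hmC of 11.1%, 7.69% and 22.2% in DCBQ samples and 0%, 0% and 6.25% in controls. None passed (limma adjusted p of 0.781 for 5hmC and 0.928 for 5mC).

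**Figure D4:**
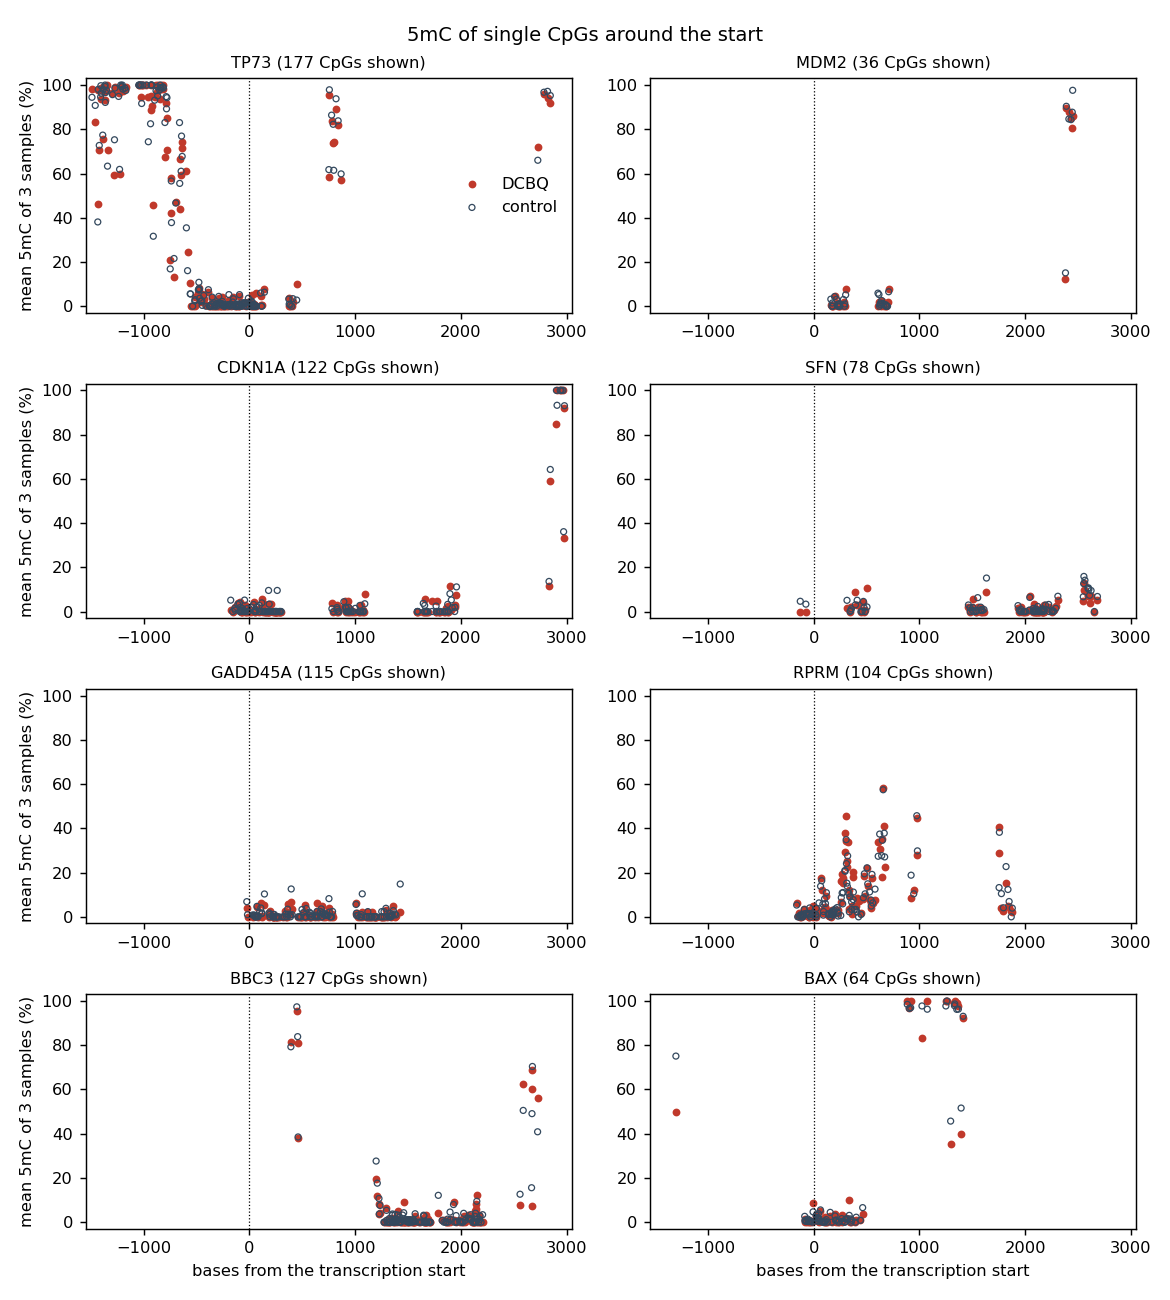
5mC in percent of single CpGs (mean of 3 samples) by distance in bases from the transcription start, filled for DCBQ and open for control. The starts of TP73, CDKN1A, SFN, GADD45A, RPRM and BAX lie in unmethylated CpGs, MDM2 has CpGs only downstream of its start, and BBC3 has its unmethylated CpGs from 1198 bases inside the gene.

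CDKN1A encodes p21, the cyclin-dependent kinase inhibitor that carries out p53's arrest in G1. At positions -177 to 1958 from its start, 113 CpGs had 1.40%, 0.988% and 1.13% 5mC in DCBQ samples and 0.586%, 1.40% and 1.29% in controls. No CpG of that stretch averaged more than 9.87%. Both sides of it were methylated. At positions 2833 to 6643 inside the gene 20 CpGs averaged 80.1% ± 1.34 in DCBQ samples and 81.8% ± 1.33 in controls, and at positions -3115 to -2981 upstream 7 CpGs averaged 91.6% ± 2.84 and 91.7% ± 4.03 (SD, n = 3 each).

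CDKN1A had a low promoter level in both marks, with 4.89% of promoters lower in 5mC and 4.85% lower in 5hmC. Its promoter 5hmC was 0.540%, 0.658% and 0.822% in DCBQ samples and 0.384%, 0.440% and 0.521% in controls. Every DCBQ sample was above every control, by 0.22 points (SE 0.13, limma unadjusted p = 0.127, adjusted p = 0.958). In the window of 250 bases before to 50 after the start the difference was -0.07 points, the other direction. The tile chr6:36679001-36680000 inside the gene read 0.695%, 0.932% and 1.12% 5hmC in DCBQ samples, against 0.380%, 0.420% and 0.182% in controls, a difference of 0.59 points (SE 0.22, limma adjusted p = 0.973). Of the 31 CpGs in this tile, that at 36679805 read 2.38%, 26.7% and 14.7% in DCBQ samples and 0% in every control. Its difference of 14.6 points carries much of the tile's difference. The tile was not computed without this CpG, so its separation may rest on that 1 CpG. Its 5mC overlapped, at 14.3%, 0% and 10% in DCBQ samples and 0%, 0% and 10.5% in controls.

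SFN encodes 14-3-3 sigma, which holds cells at the G2 checkpoint and is often methylated in epithelial tumours. In SV-HUC-1 it was unmethylated at all 78 measured CpGs, none of which averaged more than 14.5%. The 13 promoter CpGs had 2.05%, 1.24% and 2.04% 5mC in DCBQ samples and 2.95%, 1.85% and 1.92% in controls, with groups that overlapped (difference -0.46, SE 0.38, limma adjusted p = 0.890). Most of its CpGs lay downstream of the gene, where 53 CpGs from 1464 to 2310 bases after the start averaged 1.21% ± 0.220 in DCBQ samples and 1.31% ± 0.249 in controls (SD, n = 3 each). The gene body held 1 measured CpG and was not tested. Promoter 5hmC of SFN was 0.792%, 2.09% and 3.05% in DCBQ samples and 1.33%, 1.83% and 1.85% in controls.

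GADD45A, a stress protein that inhibits the G2 kinase and takes part in DNA repair, was unmethylated over its whole measured length. No start was listed for it, so the gene end with more measured CpGs stood in for the start. Its promoter window had 0.542%, 1.66% and 1.36% 5mC in DCBQ samples and 1.45%, 1.62% and 1.34% in controls, over 43 CpGs. Its body had 0.892%, 0.776% and 1.40% in DCBQ samples and 1.49%, 1.09% and 1.29% in controls, over 72 CpGs. Only 0.79% of gene bodies had less 5mC. The measured body CpGs ended at position 67686627, while the gene runs to 67688334, so this rank covers only the part nearer the assumed start. The CpG at 67686627 had 0%, 0% and 6.70% in DCBQ samples, against 10%, 11.8% and 22.7% in controls (limma adjusted p = 0.928). 5hmC was 0.638% ± 0.154 in DCBQ samples and 0.610% ± 0.0129 in controls at the promoter (SD, n = 3 each).

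RPRM encodes Reprimo, a p53-induced protein of the G2 arrest whose promoter is often methylated in cancers. Its promoter 5mC was higher in DCBQ samples, whereas the other 6 promoters tested read lower (4 of them higher after centring). The 76 CpGs averaged 8.73%, 7.46% and 5.92% in DCBQ samples, against 5.43%, 5.41% and 5.85% in controls. Every DCBQ sample lay above every control, the lowest of them by a small margin, and groups apart in either direction were 11.9% of all promoters. The difference was 1.80 points (SE 0.69, limma unadjusted p = 0.0373, adjusted p = 0.733), and it was 1.12 points without DCBQ replicate 1.

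The higher RPRM level lay downstream of the start. In the 57 CpGs of the first 500 bases of the gene 5mC was 11.3%, 9.53% and 7.16% in DCBQ samples and 6.85%, 6.75% and 7.41% in controls, so DCBQ replicate 3 fell within the controls. In the 23 CpGs of the printed sequence it was 1.27%, 1.5% and 1.97% in DCBQ samples and 1.19%, 1.40% and 1.29% in controls. The CpG 374 bases inside (153478388) read 16%, 14.9% and 22.9% in DCBQ samples and 6.90%, 6.80% and 9.70% in controls, groups apart (limma unadjusted p = 0.0060, adjusted p = 0.926).

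Further inside, RPRM did not keep that direction. From 505 to 982 bases its 19 CpGs averaged 22.6%, 22.5% and 20.9% in DCBQ samples and 25.7%, 26.5% and 19.3% in controls. A CpG 922 bases inside (153477840) was lower in DCBQ samples, 8.53% against 18.8%, and one in the downstream flank (153477008) was higher, 28.7% against 13.2%. The downstream tile chr2:153476001-153477000 had an unadjusted p of 0.0387 with groups that overlapped (difference -3.51 points, limma adjusted p = 0.796). No CpG of RPRM reached 80%, and the highest averaged 57.9%. RPRM lies within the span of GALNT13. Its 5hmC overlapped between the groups, at 1.55%, 2.67% and 2.12% in DCBQ samples and 2.65%, 1.19% and 2.80% in controls for the promoter. The CpG at 153476986 read 3.92%, 17.3% and 12.8% 5hmC in DCBQ samples and 2.27%, 0% and 0% in controls.

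BBC3 encodes PUMA, a BH3-only protein that starts mitochondrial apoptosis. Its promoter window held 4 CpGs, too few for the test, with 74.3%, 76.3% and 71.2% 5mC in DCBQ samples and 70.4%, 75.8% and 78.2% in controls. The CpG-rich unmethylated stretch of BBC3 lay inside the gene. From 1198 to 2205 bases after the listed start 117 CpGs averaged 1.45% ± 0.140 in DCBQ samples and 1.69% ± 0.224 in controls (SD, n = 3 each). Beyond 7000 bases 46 CpGs averaged 87.9% ± 1.5 in DCBQ samples and 87.5% ± 0.821 in controls.

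Between these, the level of BBC3 varied by stretch. At 2559 to 2725 bases 6 CpGs averaged 43.8% 5mC in DCBQ samples and 39.8% in controls. At 6004 to 6518 bases 63 CpGs averaged 28.6% in DCBQ samples and 28.4% in controls. The stretch between those 2 was lower. From 4079 to 5149 bases 55 CpGs averaged 11.4%, 10% and 8.79% 5mC in DCBQ samples and 8.47%, 8.11% and 10.9% in controls. The 53 CpGs there with 5hmC read 4.00%, 3.7% and 3.76% in DCBQ samples, above all controls at 2.84%, 2.79% and 2.56%. In the tile that holds part of this stretch (chr19:47228001-47229000) the limma adjusted p of 5hmC was 0.973. Over the whole body 5mC was 23.8% ± 0.287 in DCBQ samples and 23.5% ± 0.372 in controls, and 5hmC 2.51% ± 0.318 and 2.08% ± 0.158 (SD, n = 3 each), with groups that overlapped. At single CpGs of BBC3, 47226223 read 0%, 6.90% and 2.50% 5mC in DCBQ samples and 21.1%, 12.9% and 20.8% in controls. The CpGs at 47227590 and 47221767 were higher in DCBQ samples, 50.1% against 24.2% and 81.3% against 58.2%. None passed (limma adjusted p of 0.866 to 0.928).

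BAX encodes the effector that permeabilises the outer mitochondrial membrane. The 49 CpGs at positions -84 to 464 from its start averaged 1.31% ± 0.205 5mC in DCBQ samples and 1.30% ± 0.307 in controls (SD, n = 3 each). Its whole promoter window, with 1 more CpG at position -1302, had 2.79%, 1.81% and 2.24% in DCBQ samples and 3.16%, 2.85% and 2.32% in controls. That CpG alone read 71.4%, 37.5% and 40% in DCBQ samples and 78.6%, 80% and 66.7% in controls, and the groups overlapped. The body of BAX was methylated at 85.5%, 83.1% and 86.9% in DCBQ samples and 85.4%, 86.4% and 86.8% in controls. Its CpGs at 48956171 and 48956270 read 35.5% and 39.9% in DCBQ samples, against 45.7% and 51.6% in controls (limma adjusted p = 0.928 for both). 5hmC overlapped at the promoter and in the body.

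**Figure D5:**
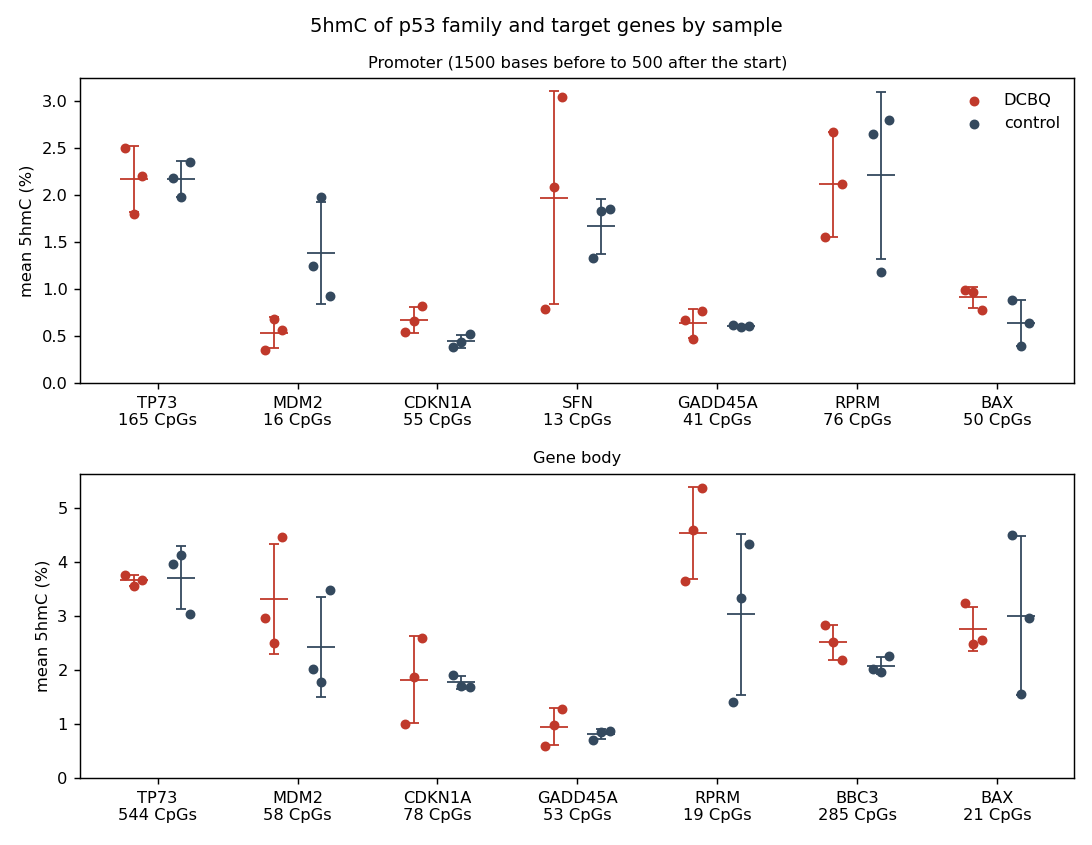
Mean 5hmC in percent of the 7 tested promoters (top) and 7 tested bodies (bottom), with 1 point per sample, DCBQ left of control, and bars for the mean and SD of 3 samples. The MDM2 promoter is lower and the CDKN1A promoter higher in every DCBQ sample, and no body has groups apart.

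In the 8 genes 5hmC was highest at CpGs of intermediate 5mC, as over all CpGs. At CpGs with 20% to under 80% 5mC it averaged 6.59% ± 0.383 in DCBQ samples and 6.69% ± 0.827 in controls, over 228 CpGs. At CpGs with 80% or more it was 2.74% ± 0.0639 in DCBQ samples and 2.48% ± 0.151 in controls, over 580. Under 20% it was 1.33% ± 0.0779 in DCBQ samples and 1.18% ± 0.0650 in controls (SD, n = 3 each), over 767. Over all CpGs these classes had 6.48%, 3.06% and 1.55% in DCBQ samples and 6.43%, 2.86% and 1.55% in controls. The classes were cut on 5mC, and a 5hmC level rests on both kinds of library, so class and level are not independent. How far the order of the classes follows from this was not tested.

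Most 5hmC of single CpGs was not repeated between samples. Of the members' CpGs, 51 of 1575 (3.24%) had 5hmC above 0 in all 6 samples, beside 3.7% of all CpGs. Across the members' CpGs, 5hmC of sample pairs correlated with r from 0.201 to 0.293 and 5mC with r from 0.981 to 0.987, a description over CpGs that share a gene. The highest mean among the 51 was at the TP73 CpG 3707918, with 13%, 3.57% and 11.3% 5hmC in DCBQ samples and 28.6%, 20% and 18.8% in controls. The BBC3 CpG 47223127 was next, with 23.8%, 14.5% and 17.8% in DCBQ samples and 14.0%, 12.8% and 9.62% in controls. Both had groups apart, in opposite directions, with limma adjusted p of 0.840 and 0.924, and were named after their values were seen. With 10 points or more and groups apart there were 5 lower and 10 higher members' CpGs in 5hmC, 0.383% and 0.766% of the 1306 that varied, beside 0.726% and 0.812% of all CpGs. For 5mC there were 27 lower and 8 higher, 1.91% and 0.565% of 1415, beside 1.79% and 1.2% of all CpGs. Without the limit of 10 points, 58 were lower and 49 higher with groups apart.

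The wider p53 pathway, 82 further genes in 6 lists of p53 relatives and regulators and of arrest, apoptosis, DNA repair, metabolism and secreted targets, had no call either. Promoter 5mC was lower in DCBQ samples for 51 of 77 tested genes with a median of -0.12 points, beside 59.7% of all promoters, and body 5mC for 60 of 80 with a median of -0.521, beside 69.6% of all bodies. In 5mC the groups were apart at 7 of 77 promoters and 15 of 80 bodies, beside 11.9% and 15.9% of all. In 5hmC they were apart at 6 of 77 promoters and 15 of 80 bodies, beside 9.97% and 9.93% of all. An unadjusted p under 0.05 was reached in 5mC by 4 promoters and 7 bodies, beside 6.66% and 8.59% of all, and in 5hmC by 2 promoters and 8 bodies, beside 4.87% and 5.37%. The smallest limma adjusted p was 0.555 for 5mC and 0.728 for 5hmC.

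By list, lower promoter 5mC was counted in 15 of 22 relatives and regulators, 9 of 13 arrest, 14 of 22 apoptosis, 4 of 8 repair, 8 of 11 metabolism and 7 of 8 secreted and adhesion genes, members included. Body 5mC was lower in 18 of 22, 10 of 12, 15 of 24, 6 of 8, 7 of 11 and 9 of 10 of the same lists. Most of all genes tested read lower as well, by the shares of all promoters and bodies above, and nothing particular to the lists is read from these counts.

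Among the regulators, TP53BP1, a reader of chromatin at DNA breaks, had promoter 5mC of 0.871%, 1.49% and 1.53% in DCBQ samples and 2.05%, 2.00% and 1.91% in controls. ATR, a kinase that phosphorylates p53 after replication stress, was the reverse, with 1.95%, 1.51% and 1.52% in DCBQ samples and 1.32%, 0.743% and 0.928% in controls. KAT5, an acetyltransferase of p53, had body 5mC of 77.6% ± 0.172 in DCBQ samples and 79.0% ± 0.105 in controls, and MDM4, an MDM2 relative, had body 5hmC of 4.85% ± 0.489 and 3.49% ± 0.0727 (SD, n = 3 each). Each of the 4 had groups apart, which their choice by the smallest p favours.

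Among targets, the clearest separation was in the body of SERPINB5, which encodes the serpin maspin. Its 44 CpGs had 4.72%, 4.92% and 5.02% 5hmC in DCBQ samples, against 2.91%, 2.15% and 2.98% in controls. The difference was 2.20 points (SE 0.45, limma unadjusted p = 0.00182, adjusted p = 0.728). XPC, which finds DNA lesions for excision repair, had body 5hmC of 3.42% in DCBQ samples and 2.03% in controls, AEN, an apoptosis nuclease, 4.53% and 2.32%, and APAF1, the core of the apoptosome, 4.64% and 7.23%, each with groups apart.

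The remaining targets named here did not pass the test either. STEAP3 had promoter 5mC of 20.7% in DCBQ samples and 21.9% in controls, TP53INP1 13.4% and 14.5%, and PCNA, the sliding clamp of replication, 3.53% and 3.93%. Body 5mC was 0.228% in DCBQ samples and 1.30% in controls for PLK2, 84.3% and 85.8% for FDXR, 62.0% and 63.3% for the death receptor TNFRSF10A, and 12.1% and 8.33% for the peroxidase GPX1. Promoter 5hmC was 0.623% in DCBQ samples and 0.230% in controls for CDC25C, and 0.874% and 0.467% for CCNB1. Groups overlapped at CDC25C and CCNB1 and were apart at the other 7. All further pathway genes named here were chosen by the smallest p, which favours groups apart, so these counts are no result about the pathway.

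As a check of the labelled cell type, promoter 5mC of epithelial and urothelial genes was under 20% in 8 of 9 measured of 12 listed. The uroplakin genes UPK1B and UPK2 were among those not measured, so the check does not reach urothelial identity. Promoter 5mC was 50% or more in all 3 leukocyte and all 3 endothelial genes measured. Of 4 fibroblast genes, 2 were under 20% and 2 at 50% or more. Levels of 5mC describe the DNA and not the RNA of these genes.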

How the data were processed

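Libraries came from the Ovation RRBS Methyl-Seq and TrueMethyl oxBS kits, per the labels' protocols. The submitters' processing notes name BSMAP 2.90, Trim Galore and cutadapt, and hg38 as the build, without settings. The authors deposited a fraction per CpG, from 0 to 1, for 5mC and for 5hmC, with strands merged and a minimum of 5 reads per the file names. The tables name 3 columns per condition, all used, and list no depth, so no counting interval is given. The labels do not describe how 5hmC was derived. Levels are printed as percent.

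Starts came from RefSeq (GRCh38.p14) for 15841 genes. For the other 4192, GADD45A among them, the gene end with more measured CpGs stood in. All 320801 measured 5mC positions in the listed promoter sequences fell on a CG. Region means over at least 5 CpGs, 1 kb tiles and varying CpGs were fitted on the untransformed level in R 4.3.3 by limma 3.58.1, using eBayes with a trend, DCBQ minus control, adjusted by Benjamini-Hochberg over all features. The fits were tested on simulated data. Other values were computed with Python 3.11.15, numpy 2.4.6 and pandas 2.3.3, and plots with matplotlib 3.10.9.

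The members, the pathway lists and the rules were chosen with earlier results of these data known. Named were all 8 members, per gene and mark up to 3 CpGs with the smallest p among those apart by 10 points or more, member tiles with an unadjusted p under 0.05, and per mark the 5 further pathway genes with the smallest p at promoters and the 5 in bodies, of which some are not reported here. Windows at every listed start were added after the data were seen. Alternatives were a logit scale, other CpG minimums, no trend, centring, a replicate block, CpGs in both tables, a shorter promoter and leaving out each sample.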

Additional observations from a re-analysis of the deposited data

How the results depend on the processing

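No member promoter or body passed at an adjusted p of 0.05 under any alternative run (smallest limma adjusted p 0.337, RPRM promoter 5mC, centred on the sample mean), and the counts of passing promoters, bodies, tiles and 5mC CpGs over all genes stayed at 0 in every alternative run. The 3 passing 5hmC CpGs, none in the 8 genes, became 0 without a mean-variance trend, 0 with the replicate block and 0 to 0 when 1 sample was left out. Same-numbered samples did not deviate together (correlations of -0.0475 to 0.0163 between their deviations). Samples with different numbers correlated as little, from -0.0242 to 0.0324. Such low values cannot show whether same-numbered samples were handled as pairs, and the main fits used no pairing. Of 28 member differences, 11 kept their direction in every alternative and 17 did not. Centring turns small differences by its shift alone, and otherwise the cause was not tested. Centring on the sample mean turned the 5mC promoter differences of TP73 (0.294 points), MDM2 (0.168), CDKN1A (0.0970) and GADD45A (0.131), the 5mC body differences of CDKN1A (0.337) and GADD45A (0.15), and in 5hmC the GADD45A promoter (-0.0699) and CDKN1A body (-0.0445). The shorter promoter turned 5mC of TP73 (0.0265) and 5hmC of CDKN1A (-0.0735) and GADD45A (-0.0351). CpGs in both tables turned the MDM2 body in 5mC (-0.0741), and the logit scale the CDKN1A body in 5hmC (-0.0117 on the log2 odds scale). Leaving out 1 sample gave ranges across 0 for promoter 5mC of TP73 (-0.288 to 0.0975), CDKN1A (-0.574 to 0.0609) and GADD45A (-0.520 to 0.0376), body 5mC of MDM2 (-0.576 to 0.833), CDKN1A (-0.329 to 0.398) and BAX (-1.86 to 0.0348), promoter 5hmC of TP73 (-0.171 to 0.183), SFN (-0.229 to 0.898), GADD45A (-0.0383 to 0.113) and RPRM (-0.608 to 0.197), and body 5hmC of TP73 (-0.381 to 0.168), CDKN1A (-0.335 to 0.464), GADD45A (-0.0219 to 0.320) and BAX (-0.973 to 0.497). The RPRM promoter kept a higher 5mC level when 1 sample was left out, 1.12 to 2.53 points, and in the shorter promoter, 0.284. The MDM2 promoter kept a lower 5hmC level when 1 sample was left out, -1.08 to -0.551 points. Precision is limited by 3 samples a group and by the unknown depth per CpG.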
